A study of Rattus norvegicus with 19 samples.

Results

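Smooth muscle cells ring the arteries and arterioles of the heart, and pericytes lie along its capillaries; together they are its mural cells. Smooth muscle contracts when calcium and calmodulin activate myosin light chain kinase, which phosphorylates myosin and lets it pull on actin filaments, and the tone that results sets coronary resistance. Endothelial cells recruit and maintain mural cells with platelet-derived growth factor B, which binds a receptor on the mural cell, and with Notch ligands. The gene list described here was chosen with earlier results of these data known. It holds 10 genes that mark mural cells, taken by symbol out of the 17455 gene symbols measured. Of these, 7 encode parts or regulators of the contractile apparatus (Acta2, Myh11, Tagln, Cnn1, Lmod1, Smtn and Mylk) and 3 encode proteins of the mural cell surface (Pdgfrb, Cspg4 and Notch3). All 10 passed the filter on low counts that left 12388 genes for testing.

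RNA from rat left ventricles was sequenced as 19 libraries in 7 groups, to follow heart failure with preserved ejection fraction (HFpEF) and its treatment with empagliflozin (EMPA), an inhibitor of the renal glucose transporter SGLT2, and pirfenidone (PFD), an antifibrotic drug. All rats were Sprague-Dawley, 24 weeks old at the start; the labels give the strain as Wildtype and the sex as Male. Control 5w (3 libraries) and control 9w (3) were hearts with no disease taken at weeks 5 and 9. By the paper, these rats ate normal chow and drank water without the nitric oxide synthase inhibitor L-NAME. The controls thus differed from the disease groups in both diet and L-NAME. HFpEF (3) was taken at week 5 after L-NAME at 0.5 g/L in the water and a diet with 60% of its energy from lard. The rats of the remaining groups had the same 5 weeks of induction, then 4 weeks of daily gavage, and were taken at week 9. It was not clear whether L-NAME and the diet went on during the gavage. The paper's methods give 5 weeks of induction, while its discussion speaks of 9 weeks. Untreated (3) received the saline vehicle, EMPA (2) 0.35 g/kg/d, PFD (2) 0.3 g/kg/d, and EMPA + PFD (3) both drugs at these doses. The model is made with a drug and a diet, so it carries no genetic lesion of the mural cells. Counts per library came to between 7430539 and 13017754, with a median of 9951011.

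Some libraries went against their labels or stood apart, and this bears on every comparison below. Eif2s3y, which lies on the Y chromosome, had 0 counts in HFpEF replicates 1 and 3, in all 3 untreated and in both PFD libraries, and 613 to 1321 counts in the other libraries, although every label reads Male. Sex-linked counts and group therefore cannot be told apart where untreated was compared with control 9w, EMPA or EMPA + PFD. RT1-CE16, a gene of the polymorphic major histocompatibility region, had 0 to 3 counts in control 5w, HFpEF and EMPA and 308 to 922 counts in the other groups, so that EMPA resembled the week 5 libraries in this gene. Myl4, an atrial myosin light chain, had 19668 counts in untreated replicate 2, 13853 in control 9w replicate 3 and 2702 in control 9w replicate 1, against 24 to 436 in the other libraries. For the members themselves, EMPA replicate 2 and HFpEF replicate 1 stood apart, and control 5w replicate 1 lay below replicates 2 and 3 of its group for Acta2, Tagln, Cnn1, Lmod1 and Pdgfrb, as their levels show. Over genes with at least 20 counts in a pair of libraries, replicates were farthest apart between control 5w replicate 1 and replicates 2 and 3, with a chi-square per degree of freedom of 187 and 144 against 7.05 between the latter, and between untreated replicate 2 and replicates 1 and 3, with 176 and 143 against 15.8.

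Levels are given as CPM, counts brought to a common library size with TMM, a normalization that corrects for differences in library composition, in the order of the replicates. The thin filament members come first. Acta2 encodes the smooth muscle actin that forms these filaments. Its level was 79.0, 149 and 121 CPM in control 5w, 385, 114 and 173 in HFpEF, 163, 143 and 149 in control 9w and 103, 179 and 185 in untreated. In the drug groups it was 93.9 and 539 CPM with EMPA, 103 and 101 with PFD and 56.6, 105 and 99.8 with EMPA + PFD. EMPA replicate 2 and HFpEF replicate 1 lay above every other library, and the EMPA + PFD libraries all lay below the HFpEF and control 9w libraries while overlapping untreated.

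Tagln encodes transgelin, an actin-binding protein of the smooth muscle cytoskeleton. Its level was 54.6, 99.1 and 86.0 CPM in control 5w, 422, 90.2 and 162 in HFpEF, 159, 144 and 141 in control 9w and 89.3, 129 and 183 in untreated. It was 92.0 and 593 CPM with EMPA, 68.6 and 93.7 with PFD and 40.6, 80.9 and 73.9 with EMPA + PFD. As for Acta2, EMPA replicate 2 and HFpEF replicate 1 were highest. The EMPA + PFD libraries all lay below the HFpEF, control 9w and untreated libraries, whereas HFpEF and control 5w overlapped.

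Cnn1 encodes calponin, which binds actin and slows the myosin ATPase, and it was the member with the fewest counts. Its level was 1.41, 13.7 and 11.2 CPM in control 5w, 20.4, 2.11 and 6.52 in HFpEF, 10.8, 4.67 and 10.7 in control 9w and 3.38, 6.74 and 15.0 in untreated. It was 4.53 and 41.5 CPM with EMPA, 1.53 and 4.01 with PFD and 1.30, 3.83 and 3.13 with EMPA + PFD. The replicates of most groups were far apart, and EMPA + PFD lay wholly below control 9w but overlapped HFpEF and untreated.

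Lmod1 encodes leiomodin, which nucleates actin filaments in smooth muscle. Its level was 4.43, 10.7 and 9.39 CPM in control 5w, 40.6, 16.7 and 15.5 in HFpEF, 22.9, 15.3 and 25.8 in control 9w and 8.23, 24.0 and 14.4 in untreated. It was 10.7 and 65.1 CPM with EMPA, 7.78 and 8.54 with PFD and 8.75, 11.1 and 13.4 with EMPA + PFD. The HFpEF and the control 9w libraries lay above all control 5w and all EMPA + PFD libraries, while untreated spanned low and high values.

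The motor and its kinase follow. Myh11 encodes the myosin heavy chain of smooth muscle. Its level was 98.6, 98.8 and 81.4 CPM in control 5w, 345, 132 and 179 in HFpEF, 258, 242 and 201 in control 9w and 164, 201 and 282 in untreated. It was 187 and 839 CPM with EMPA, 114 and 149 with PFD and 99.7, 178 and 152 with EMPA + PFD. The control 5w libraries were the lowest of all 19, without overlap with any other group, and the lowest EMPA + PFD library came close to them.

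Mylk encodes myosin light chain kinase, the enzyme that switches on contraction; a short form of it is made outside smooth muscle too, and the counts do not separate the forms. Its level was 129.6, 137 and 129 CPM in control 5w, 241, 222 and 184 in HFpEF, 220.0, 214 and 171 in control 9w and 179, 168 and 213 in untreated. It was 182 and 315 CPM with EMPA, 152 and 161 with PFD and 126, 113 and 163 with EMPA + PFD. The EMPA + PFD and control 5w libraries both lay wholly below HFpEF, control 9w and untreated.

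Smtn encodes smoothelin, a protein of the contractile cytoskeleton that other muscle also makes. Its level ran from 109 CPM in HFpEF replicate 1 to 306 CPM in control 9w replicate 2, with group means of 175 ± 54.9 (SD, n = 3) in control 5w and 262 ± 45.3 (SD, n = 3) in control 9w. Unlike the other contractile members, it was lowest in HFpEF replicate 1 and was not raised in EMPA replicate 2, where it stood at 196 CPM against 238 in EMPA replicate 1. All 7 groups overlapped at least one other group.

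**Figure D1:**
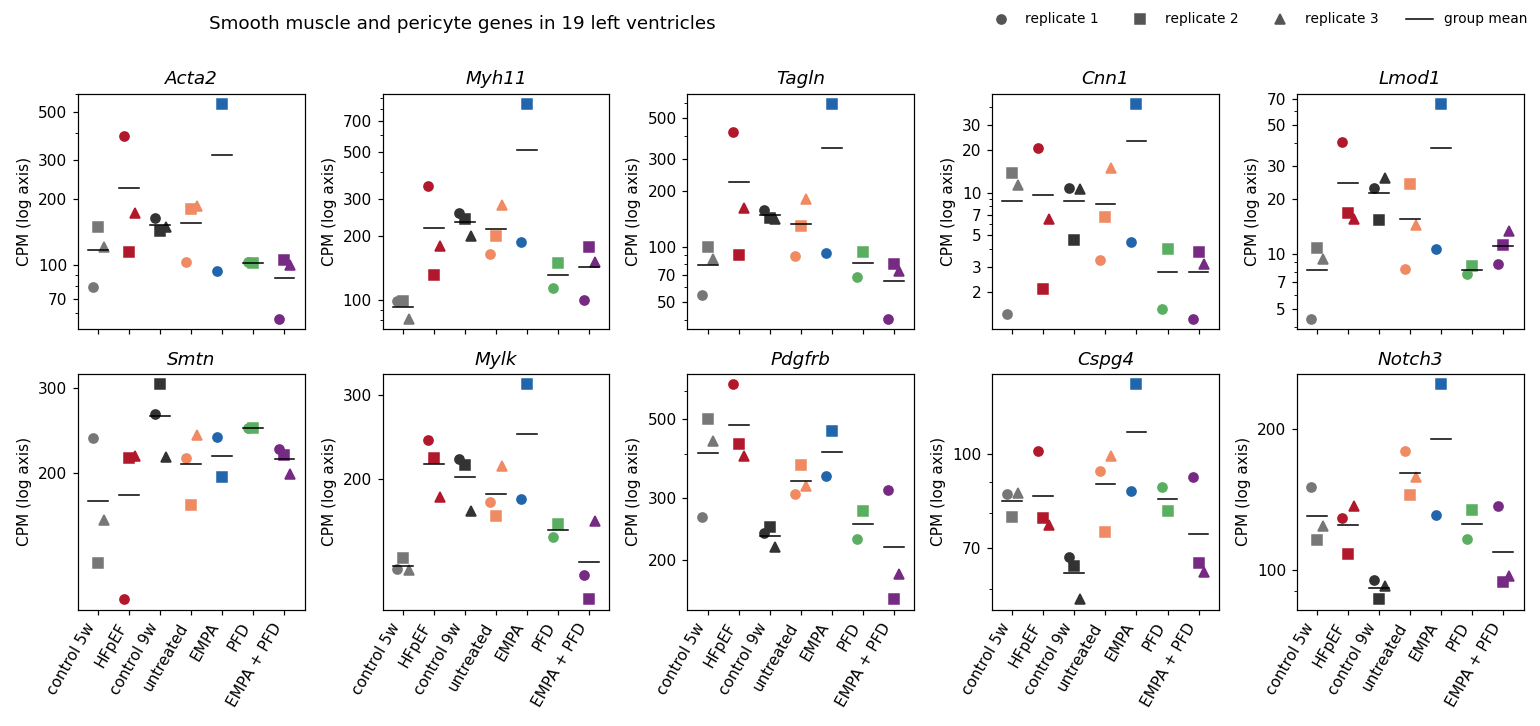
Level of each of the 10 genes in each of the 19 libraries, in CPM on a log axis, by group; a point is a library, its shape the replicate number, and a line the group mean. EMPA replicate 2 is the highest library for 8 of the 10 genes, and HFpEF replicate 1 lies apart from replicates 2 and 3 of its group for Acta2, Tagln and Cnn1.

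Among the surface proteins, Pdgfrb is the receptor for platelet-derived growth factor B and is also made by cardiac fibroblasts. Its level was 264, 502 and 435 CPM in control 5w, 628, 426 and 393 in HFpEF, 238, 248 and 217 in control 9w and 306, 371 and 323 in untreated. It was 344 and 463 CPM with EMPA, 229 and 274 with PFD and 316, 155 and 182 with EMPA + PFD. The control 9w libraries lay below all control 5w, HFpEF and untreated libraries, and the EMPA + PFD libraries lay below all HFpEF libraries but overlapped untreated through replicate 1.

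Cspg4 encodes the proteoglycan NG2, used as a pericyte marker. Its level ran from 57.9 CPM in control 9w replicate 3 to 129.7 in EMPA replicate 2, and the group means ran from 63.7 ± 5.15 CPM (SD, n = 3) in control 9w to 108 ± 30.2 (SD, n = 2) with EMPA. The control 9w libraries lay below those of control 5w, HFpEF and untreated, and overlapped EMPA + PFD.

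Notch3 is the Notch receptor of arterial smooth muscle and pericytes. Its level was 150.5, 116 and 124 CPM in control 5w, 129, 108 and 137 in HFpEF, 95.2, 86.6 and 92.1 in control 9w and 179, 145 and 158 in untreated. It was 131 and 249 CPM with EMPA, 116 and 134 with PFD and 137, 93.8 and 96.9 with EMPA + PFD. Untreated lay above control 9w, HFpEF, PFD and EMPA + PFD without overlap, and control 9w was low in every replicate.

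The group with the highest mean was the same for many members, while the rest of the order differed. EMPA had the highest mean for 8 of the 10 members, in each case through replicate 2, HFpEF the highest for Pdgfrb and control 9w the highest for Smtn. EMPA + PFD had the lowest mean for Acta2, Tagln, Cnn1 and Pdgfrb, control 5w for Myh11, Smtn and Mylk, control 9w for Cspg4 and Notch3, and PFD for Lmod1. Neighbours in the orders of the group means mostly lay within each other's spread. For Acta2 the mean of EMPA was 317 ± 315 CPM (SD, n = 2), that of HFpEF 224 ± 142 (SD, n = 3) and that of EMPA + PFD 87.0 ± 26.4 (SD, n = 3), so that the spread of the first pair exceeded their difference. EMPA replicate 2 stood at 5.74 times replicate 1 for Acta2, 6.45 times for Tagln, 6.11 times for Lmod1 and 4.49 times for Myh11, but at 0.822 times for Smtn.

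A test of any difference among the 7 groups called 6 of the 10 members at an adjusted p under 0.05, where 50.3% of all tested genes were called. By the edgeR quasi-likelihood F test with Benjamini-Hochberg adjustment over all tested genes, the adjusted p was 0.0113 for Mylk, 0.0125 for Myh11, 0.0172 for Pdgfrb, 0.0178 for Notch3, 0.0341 for Tagln and 0.0420 for Lmod1. The same adjusted p in edgeR after Benjamini-Hochberg was 0.0639 for Cspg4, 0.0870 for Acta2, 0.177 for Cnn1 and 0.331 for Smtn, which missed the threshold. The members' share was thus near that of all genes. In bulk tissue, fewer mural cells and less RNA per mural cell cannot be told apart, here or in any comparison that follows. In each of these, a gene was called when its adjusted p was under 0.05 and its level differed at least 2 fold, which is 1 on the log2 scale.

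The onset of disease was read from HFpEF against control 5w. No member was called: 0 of 10 were called higher, where 4.28% of all tested genes were, and 0 lower, where 4.41% were, by edgeR. At an unadjusted p under 0.05 there were 4, against 35.8% of all tested genes, and DESeq2 called 3 (Myh11, Tagln and Lmod1), against 10.3% of all tested genes. The contractile members leaned up, with a median log2 fold change of 0.95 against 0.030 for the surface members and 0.022 for all tested genes. Mylk passed on adjusted p alone, as 20% of tested genes did: its log2 fold change was 0.71 ± 0.19 (SE), with an adjusted p of 0.0201 by edgeR and Benjamini-Hochberg, and 3 of 3 HFpEF libraries lay above every control 5w library. Mylk missed that threshold without control 5w replicate 1 or 3 or HFpEF replicate 1 or 2, and with the term for Eif2s3y given below. That term gave its highest adjusted p over the alternatives, 0.0834 in edgeR with Benjamini-Hochberg, at a log2 fold change of 0.75. For Lmod1 the value was 1.57 ± 0.57 (edgeR, Benjamini-Hochberg adjusted p = 0.0642), for Tagln 1.49 ± 0.59 (adjusted p = 0.0840) and for Myh11 1.23 ± 0.44 (adjusted p = 0.0598). HFpEF replicate 1 carried much of the size: without it these fell to 0.97, 0.66 and 0.74. With a term for libraries that had no Eif2s3y counts, among them HFpEF replicates 1 and 3, they fell to 1.02, 0.17 and 0.50, and the median of all 10 members from 0.49 to 0.13. Only HFpEF holds libraries with and without these counts. The term therefore carries the difference of HFpEF replicate 2 from replicates 1 and 3 into every comparison. It is not a check apart from HFpEF replicate 1, here or below. Leaving out either EMPA library, which belongs to neither group but enters the shared estimate of spread, raised the count to 3 (Myh11, Tagln and Lmod1), and leaving out HFpEF replicate 2 raised it to 1 (Myh11).

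Cell type markers moved with the onset of disease as well. Of the cardiomyocyte markers 3 of 10 were called lower, with a summed level of 73439, 28940 and 33324 CPM in control 5w and 10894, 24704 and 33049 in HFpEF, Myh6 being the most abundant on average over the 19 libraries. Of the endothelial markers 3 of 10 were called higher, with 1938, 1593 and 1817 and 1887, 3967 and 3153 CPM and Vwf the most abundant on average. The mesothelium list had 2 of 4 tested called higher, with 55.9, 29.3 and 39.8 and 70.6, 119.6 and 129 CPM, Wt1 being the most abundant on average and Krt19 at 0 in all control 5w libraries. The myofibroblast list had 1 of 8 called higher and 1 lower, with 262, 7346 and 6299 and 4452, 577 and 2164 CPM and Postn the most abundant on average. No fibroblast, atrial or leukocyte marker was called by edgeR. The part of these cell types in the members' values was not tested.

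The passage of time without disease was read from control 9w against control 5w. One contractile member rose: Myh11 was higher by 1.33 ± 0.44 on the log2 scale (SE; edgeR, Benjamini-Hochberg adjusted p = 0.0303), with 3 of 3 control 9w libraries above every control 5w library. That is 1 of 10 members called higher, where 7.46% of all tested genes were, and 0 called lower, where 7.21% were. The 1817 genes called in all became 1206 to 2025 when 1 library was left out. DESeq2 called 2 (Myh11 and Lmod1), against 15.8% of all tested genes, and 7 members had an unadjusted p under 0.05, against 45.4% of all tested genes. The call of Myh11 was lost, at log2 fold changes of 1.24 or more, when any control 5w library or control 9w replicate 1 or 2 was left out, with an adjusted p of up to 0.0928 by edgeR and Benjamini-Hochberg. On adjusted p alone, which 34.5% of tested genes passed, Mylk was higher by 0.61 ± 0.19 (edgeR, Benjamini-Hochberg adjusted p = 0.0231) and Pdgfrb had a log2 fold change of −0.77 ± 0.27 (adjusted p = 0.0402). Over the alternatives the edgeR adjusted p by Benjamini-Hochberg reached 0.0796 for Mylk, which missed the threshold without control 5w replicate 2 or 3 or control 9w replicate 1 or 2, and 0.163 for Pdgfrb, which missed it without control 5w replicate 2 or 3, any control 9w library or untreated replicate 3. The medians of contractile and surface members differed in sign, at 0.61 and −0.51 against −0.038 for all tested genes, though Cnn1 among the contractile members was at −0.014. The values for Notch3 and Cspg4 were −0.51 ± 0.21 and −0.39 ± 0.17.

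Markers of other cell types moved with this comparison too. Of the endothelial markers 8 of 10 were called higher, and their summed level was 1938, 1593 and 1817 CPM in control 5w and 4232, 4431 and 3658 in control 9w. Of the fibroblast markers 7 of 10 were called lower, with sums of 8319, 44643 and 36546 and 8905, 6117 and 8906 CPM, Col3a1 being the most abundant on average over all libraries. Control 5w replicate 1 was as low as control 9w in this list, so the groups overlapped. The myofibroblast list had 5 of 8 called lower, with sums of 262, 7346 and 6299 and 412, 213 and 902 CPM, and the leukocyte list 4 of 8 lower, with 1119, 1922 and 1778 and 525, 509 and 477 CPM and Cd74 the most abundant on average. The atrial list had 3 of 8 called higher, with 3515, 6659 and 5123 and 5413, 314 and 23761 CPM and Nppa the most abundant on average, and the mesothelium list 1 of 4 tested, with 55.9, 29.3 and 39.8 and 139.9, 195 and 107 CPM, nearly all of it Wt1, while Krt19 was at 0 in all control 5w libraries and control 9w replicate 2, and Msln at 0 in control 5w replicate 1. None of the 10 cardiomyocyte markers was called by edgeR. The part of these cell types in the members' values was not tested.

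Untreated disease was read from untreated against control 9w. No member was called by edgeR, 0 of 10 higher, where 0.339% of all tested genes were, and 0 lower, where 0.573% were. At an unadjusted p under 0.05 there were 2, Notch3 and Cspg4, against 18.2% of all tested genes, and DESeq2 called 0, against 2.41%. Notch3 came nearest, at a log2 fold change of 0.82 ± 0.21 (edgeR, Benjamini-Hochberg adjusted p = 0.0572), with 3 of 3 untreated libraries above every control 9w library, and Cspg4 stood at 0.48 ± 0.17 (adjusted p = 0.152). Notch3 passed on adjusted p alone under 7 of 28 alternatives, DESeq2 and the fits without untreated replicate 2, either EMPA library or EMPA + PFD replicate 1 among them, while the term for Eif2s3y gave 0.52; the adjusted p ran from 0.00875 in DESeq2 to 0.634 with that term in edgeR (Benjamini-Hochberg). The surface members had a median of 0.51, the contractile members of −0.12 and all tested genes of 0.0051. Of the cell type markers 1 was called, a leukocyte marker that was higher in untreated. The 113 genes called in all became 7 to 413 when 1 library was left out, so the shares of all tested genes depend on single libraries.

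Whether the disease effect differed between the weeks was tested as the difference of both differences, untreated minus control 9w less HFpEF minus control 5w. By edgeR 0 of 10 members were called higher, where 6.35% of all tested genes were, and 0 lower, where 5.67% were. The 1489 genes called in all became 877 to 2241 when 1 library was left out. Of the members 4 had an unadjusted p under 0.05, against 35.3% of all tested genes, and DESeq2 called 1 (Lmod1), against 14.5% of all tested genes. On adjusted p alone, which 20% of tested genes passed, Mylk stood at −0.82 ± 0.27 (SE; edgeR, Benjamini-Hochberg adjusted p = 0.0447) and Notch3 at 0.88 ± 0.29 (adjusted p = 0.0463), so the difference lay below 0 for the kinase and above 0 for the receptor. Most alternatives lost this threshold, 16 of 28 for Mylk and 18 of 28 for Notch3. Among the fits that left out 1 library, Mylk kept it without HFpEF replicate 3, control 9w replicate 3, untreated replicate 3, either EMPA library or EMPA + PFD replicate 2 or 3, and Notch3 without untreated replicate 2, either EMPA library or EMPA + PFD replicate 1; the adjusted p by edgeR and Benjamini-Hochberg otherwise reached 0.0997 and 0.114. The values were −2.02 ± 0.79 for Lmod1, −1.64 ± 0.82 for Tagln and −1.35 ± 0.61 for Myh11, with a contractile median of −0.91, a surface median of 0.45 and −0.020 for all tested genes. Without HFpEF replicate 1 they were −1.42, −0.81 and −0.86 in that order. Without untreated replicate 2 the count was 1 (Lmod1), and without either EMPA library it was 2 (Myh11 and Lmod1). The comparison of untreated with HFpEF itself called 0 of 10 members in edgeR, where 0.194% of all tested genes were called in either direction, with 0 at an unadjusted p under 0.05, against 22.7% of all tested genes, and 0 in DESeq2, against 3.56%. The share of 0.194% stood for 24 genes, which became 4 without HFpEF replicate 1 and 933 without untreated replicate 2, the extremes among the fits that left out 1 library.

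In the disease effect between weeks, 3 of 10 cardiomyocyte markers were called higher and 5 of 10 endothelial markers lower. Their summed levels in control 9w and untreated were 38038, 44049 and 41589 and 73085, 21424 and 60298 CPM for the first list, with Myh6 the most abundant on average, and 4232, 4431 and 3658 and 3310, 3838 and 3631 CPM for the second, with Vwf. The mesothelium list had 2 of 4 called lower, the myofibroblast and the atrial list 1 of 8 lower each, and the leukocyte list 1 of 8 higher. The part of these cell types in the members' values was not tested.

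**Figure D2:**
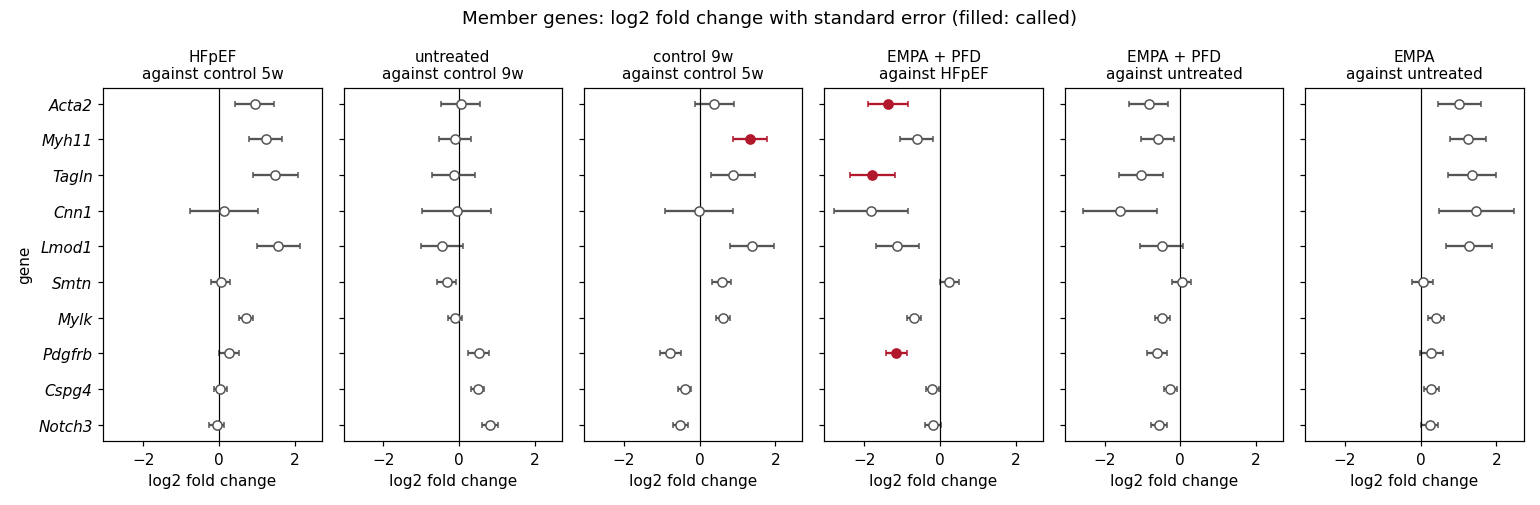
Log2 fold change (horizontal axis) of each member, with its SE as a bar, in 6 of the comparisons; filled points are called. Acta2, Tagln and Pdgfrb are called lower in EMPA + PFD against HFpEF, and Myh11 is called higher in control 9w against control 5w.

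Hearts given both drugs were set against the hearts taken at the start of treatment, EMPA + PFD against HFpEF. Acta2, Tagln and Pdgfrb fell: the log2 fold change was −1.37 ± 0.52 for the actin, −1.79 ± 0.59 for transgelin and −1.15 ± 0.28 for the receptor (SE). The adjusted p by edgeR and Benjamini-Hochberg was 0.0439, 0.0239 and 0.00452 in that order, and for each gene 3 of 3 EMPA + PFD libraries lay below every HFpEF library. So 3 of 10 members were called lower, where 12% of all tested genes were, and 0 higher, where 10.7% were, and DESeq2 called the same 3, against 23.7% of all tested genes. At an unadjusted p under 0.05 there were 4, against 54.9% of all tested genes. Mylk passed on adjusted p alone, as 46.8% of tested genes did, at −0.68 ± 0.19 (adjusted p = 0.0102), and Lmod1 and Cnn1 stood at −1.13 ± 0.57 and −1.82 ± 0.97 without passing, which became −0.53 and −0.65 without HFpEF replicate 1. The contractile median was −1.13, the surface median −0.21 and that of all tested genes −0.086; scaling by the upper quartile moved the last to −0.20, and the same 3 members were called under it. The groups also differ by 4 weeks of age.

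These calls rested on few libraries. Without HFpEF replicate 1 none of the 3 was called by edgeR, at log2 fold changes of −0.72 for Acta2, −0.95 for Tagln and −0.91 for Pdgfrb. Pdgfrb alone was called without EMPA + PFD replicate 1 or 3, and Tagln alone without EMPA + PFD replicate 2. The call of Acta2 was lost in 11 of the 19 fits that left out 1 library, among them those without control 5w replicate 3, untreated replicate 3, any control 9w or either PFD library, with an adjusted p of up to 0.273 by edgeR and Benjamini-Hochberg. A fit of these groups alone called Tagln and Pdgfrb but not Acta2. Leaving out either EMPA library brought the count to 4, adding Lmod1. Mylk missed its threshold without EMPA + PFD replicate 2 and also with the term for Eif2s3y, at −0.72 (edgeR, Benjamini-Hochberg adjusted p = 0.0612). With the term for libraries that had no Eif2s3y counts, 0 of the 3 were called by edgeR, at −0.40 for Acta2, −0.47 for Tagln and −0.97 for Pdgfrb, whose size was thus near that without the term.

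Cell type markers moved with this comparison too. Of the cardiomyocyte markers 9 of 10 were called higher, with a summed level of 10894, 24704 and 33049 CPM in HFpEF and 68532, 106044 and 86121 with EMPA + PFD, Myh6 being the most abundant on average over all libraries. HFpEF replicate 1, the library with the highest Acta2, Tagln and Pdgfrb of its group, had the lowest cardiomyocyte sum of the series. The fibroblast list had 6 of 10 called lower, with 20707, 17663 and 17740 and 11167, 4047 and 7881 CPM, and the myofibroblast list 7 of 8, with 4452, 577 and 2164 and 211, 244 and 240.1 CPM. The leukocyte list had 6 of 8 called lower, with 1974, 751 and 1161 and 891, 685 and 861 CPM, and the mesothelium list 2 of 4, with 70.6, 119.6 and 129 and 65.3, 84.6 and 55.1 CPM and Krt19 at 0 in all 3 EMPA + PFD libraries. No endothelial or atrial marker was called by edgeR. Pdgfrb is made by fibroblasts and Acta2 and Tagln by myofibroblasts as well as by mural cells, and the part of these cell types in the 3 calls was not tested.

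Against untreated, the comparison that matches the week, EMPA + PFD called 0 of 10 members in edgeR. Of all tested genes, 2.34% were called higher there and 1.48% lower. DESeq2 called 0 members, against 5.77% of all tested genes, and 3 had an unadjusted p under 0.05 in edgeR, against 32.7%. The 473 genes called in all became 59 without EMPA + PFD replicate 2 and 910 without untreated replicate 1, the extremes among the fits that left out 1 library. Those 3 members were Notch3 at −0.56 ± 0.21, Pdgfrb at −0.62 ± 0.27 and Mylk at −0.48 ± 0.19 on the log2 scale. Tagln and Cnn1 stood at −1.04 ± 0.58 and −1.59 ± 0.98. Of the 10 members 9 had values below 0, where 47.5% of all tested genes had values above 0. The contractile median was −0.59 and the surface median −0.56, against −0.032 for all tested genes. Of the cell type markers 1 of 10 cardiomyocyte markers was called higher, and 1 of 10 endothelial and 2 of 8 atrial markers lower, whose part was not tested. With the term for Eif2s3y, whose size the HFpEF libraries alone set, the values of Tagln and Cnn1 turned to 0.66 and 1.08.

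Against control 9w, EMPA + PFD called 0 of 10 members in edgeR, where 7.15% of all tested genes were called higher and 4.92% lower. The 1495 genes called in all became 973 to 1578 when 1 library was left out. DESeq2 called 0 members, against 13.1% of all tested genes, and 1 had an unadjusted p under 0.05 in edgeR, against 44.4%. That member was Mylk, lower by adjusted p alone, which 33.8% of tested genes passed, at −0.59 ± 0.19 (edgeR, Benjamini-Hochberg adjusted p = 0.0282), with 3 of 3 treated libraries below every control 9w library. It missed that threshold without control 9w replicate 1 or 2 or EMPA + PFD replicate 1 or 2, its adjusted p reaching 0.133 in edgeR with Benjamini-Hochberg. The values were −1.19 ± 0.59 for Tagln and −1.66 ± 0.98 for Cnn1. A fit of these groups alone called 2, Tagln and Cnn1. Cell type markers moved here as well: 6 of 10 endothelial markers were called lower, with sums of 4232, 4431 and 3658 CPM in control 9w and 2388, 2003 and 2034 with EMPA + PFD, and 4 of 10 cardiomyocyte markers higher, with 38038, 44049 and 41589 and 68532, 106044 and 86121 CPM. Of the atrial markers 4 of 8 were called lower, with 5413, 314 and 23761 and 333, 794 and 414 CPM. On average over the libraries Vwf, Myh6 and Nppa were the most abundant of these lists. The mesothelium list had 1 of 4 called lower, Krt19 being at 0 in all EMPA + PFD libraries, and the leukocyte list 1 of 8 higher, and the part of these cell types was not tested. The comparisons with HFpEF, untreated and control 9w share the EMPA + PFD libraries, so their values are not independent: for Mylk they were −0.68, −0.48 and −0.59, and for Pdgfrb −1.15, −0.62 and −0.11.

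EMPA alone, against untreated, had all 10 members above 0, where 51.0% of all tested genes were. Yet edgeR called 0 of 10, where 0.0404% of all tested genes were called in either direction. Of the members 2 had an unadjusted p under 0.05, against 8.63% of all tested genes, and DESeq2 called 0, against 0.412%. The values were 1.02 ± 0.57 for Acta2, 1.25 ± 0.48 for Myh11, 1.36 ± 0.63 for Tagln, 1.47 ± 0.98 for Cnn1 and 1.28 ± 0.61 for Lmod1. They came from EMPA replicate 2: without it the values were −0.73, −0.21, −0.54, −0.88 and −0.55 in the same order, from a group of 1 library. With the term for Eif2s3y, a gene with counts in both EMPA libraries and none in untreated, they were 2.31, 2.24, 3.05, 4.14 and 2.03, with an adjusted p of 0.283 or more by edgeR and Benjamini-Hochberg. In EMPA replicate 2 the myofibroblast sum was 2000 CPM against 307 in replicate 1, and the atrial sum 5467 against 903. Its cardiomyocyte sum was 34060 CPM against 46865, and the part of these cell types was not tested.

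PFD alone, against untreated, called 0 of 10 members in edgeR, where 0.00807% of all tested genes were called, with 0 at an unadjusted p under 0.05, against 5.21% of all tested genes, and 0 in DESeq2, against 0.0323%. Of the members 9 had values below 0, Cnn1 at −1.58 ± 1.12, and the Myh11, Mylk, Pdgfrb and Notch3 libraries of PFD lay below all untreated libraries. The interaction of EMPA and PFD, the test of whether both drugs together differ from the sum of each, called 0 of 10 in edgeR, where 0.00807% of all tested genes were called, with 0 at an unadjusted p under 0.05, against 9.13% of all tested genes, and 0 in DESeq2, against 0.307%. All 10 values lay below 0, where 48.5% of all tested genes lay above 0. Tagln was at −1.68 ± 0.90, Cnn1 at −1.48 ± 1.50, Acta2 at −1.26 ± 0.80 and Myh11 at −1.13 ± 0.68. Without EMPA replicate 2 these turned to 0.22, 0.87, 0.50 and 0.33.

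Other genes of smooth muscle contraction gave a mixed picture beside the members. Of 30 listed genes 27 were tested, since Myl6 had 0 counts in every library and Mkl1 and Mkl2 were not found. In HFpEF against control 5w, 2 rose and 2 fell, with a median of 0.11. Synpo2, which encodes an actin-bundling protein of the Z-disc, fell by 2.08 ± 0.41 on the log2 scale (edgeR, Benjamini-Hochberg adjusted p = 0.00545), and Myocd, the myocardin coactivator of smooth muscle and cardiac genes, fell by 1.14, a call lost without HFpEF replicate 1 at −0.88. Csrp1 rose by 1.09 ± 0.27, a call lost without control 5w replicate 1 or HFpEF replicate 1, at log2 fold changes down to 0.76. Kcnma1, the pore of a calcium-activated potassium channel, was called higher from 0, 4 and 1 counts in control 5w to 35, 4 and 15 in HFpEF, too few for a fold to be given, and this call was lost without control 5w replicate 1 or 3 or HFpEF replicate 1, with an adjusted p of up to 0.116 by edgeR and Benjamini-Hochberg. With the term for Eif2s3y the calls of Myocd, Csrp1 and Kcnma1 were lost, at −1.09 for Myocd and 0.64 for Csrp1, with adjusted p of 0.106, 0.245 and 0.550 in that order (edgeR, Benjamini-Hochberg), while that of Synpo2 was kept.

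In the other comparisons the same list had 1 called higher and 1 lower in control 9w against control 5w, 2 higher and 0 lower in EMPA + PFD against untreated, 5 higher and 9 lower in EMPA + PFD against HFpEF, and 3 higher and 2 lower in EMPA + PFD against control 9w. Of the 9 lower against HFpEF, only Ppp1r14a kept its call without HFpEF replicate 1, and only it with the term for Eif2s3y. All 5 higher calls against HFpEF held in both fits. The disease effect between weeks had 3 higher and 2 lower, and in the remaining comparisons edgeR called 0. Synpo2 was at −2.42 ± 0.42 in control 9w against control 5w and, with EMPA + PFD, at 2.26 ± 0.42 against HFpEF and 2.60 ± 0.42 against control 9w, calls kept in each fit that left out 1 library. Against untreated it was called at 1.93 ± 0.41, which was lost without untreated replicate 2 or EMPA + PFD replicate 2, with an adjusted p of up to 0.0720 by edgeR and Benjamini-Hochberg. Actg2, the enteric smooth muscle actin, was at −2.98 ± 0.95, Itga8 at −2.61 ± 0.95 and Csrp2 at −2.26 ± 0.70 in EMPA + PFD against HFpEF, and all 3 calls were lost without HFpEF replicate 1, at values up to −1.31, −1.51 and −1.73. They were lost without EMPA + PFD replicate 2 as well, those of Actg2 and Itga8 also without replicate 1 and that of Itga8 without replicate 3, and with the term for Eif2s3y, at −0.11 for Actg2, −0.11 for Itga8 and −0.88 for Csrp2. Other calls there held in each fit that left out 1 library and with that term: 1.91 for Myocd, 1.85 for Prkg1 and −1.38 for Ppp1r14a, genes named after their values were seen. Myocd was also called higher with EMPA + PFD against control 9w, at 1.63 ± 0.27, and in the disease effect between weeks, at 1.86 ± 0.38, and both calls held in the same fits. In EMPA + PFD against HFpEF the median of the list was −0.44 against −0.086 for all tested genes.

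Of 18 pericyte-enriched genes 17 were tested. Higd1b was called higher in HFpEF against control 5w at 1.18 ± 0.35, a call lost without any control 5w library or HFpEF replicate 2, at values down to 0.67. In EMPA + PFD against HFpEF, Anpep and Foxs1 fell, at −1.50 ± 0.34 and −1.45 ± 0.40, and both calls held in each fit that left out 1 library. With the term for Eif2s3y that of Anpep was lost, with an adjusted p of 0.104, and in a fit of these groups alone that of Foxs1, with an adjusted p of 0.0613 (edgeR, Benjamini-Hochberg). The median of this list there was −0.40, where that of the surface members was −0.21. The list did not fall as a whole. Its most abundant gene on average, Abcc9, was not called but went the other way without overlap. It was at 239, 340 and 327 CPM in HFpEF and 552, 598 and 481 with EMPA + PFD. In control 9w against control 5w Higd1b rose and Anpep fell, at 1.14 ± 0.35 and −1.17 ± 0.34. The first call was lost without control 5w replicate 1 or 2 or control 9w replicate 2, at values down to 0.78, and the second without control 5w replicate 2 or 3 or control 9w replicate 1 or 2, at values up to −0.93. With EMPA + PFD, Foxs1 was called lower against untreated at −1.29 ± 0.40, a call lost in 14 of the 19 fits that left out 1 library and kept without control 5w replicate 1, HFpEF replicate 1 or 2, untreated replicate 1 or EMPA + PFD replicate 1; it was also lost with the term for Eif2s3y. Mcam was called lower against control 9w at −1.15 ± 0.21, which was lost without control 9w replicate 2 at −0.99. In the disease effect between weeks 3 of the 17 were called, Rgs5 at 1.07 ± 0.29, Mcam at −1.06 ± 0.30 and Higd1b at −1.44 ± 0.49. Of the fits that left out 1 library, Higd1b kept this call only in those without HFpEF replicate 1 or control 9w replicate 3, and it lost it with the term for Eif2s3y at −0.93. Mcam and Rgs5 lost it without HFpEF replicate 1, control 9w replicate 2 or untreated replicate 1, and also without control 5w replicate 2 for Mcam and replicate 1 for Rgs5, at values of −0.90 and 0.88 nearest 0.

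The PDGF and Notch list holds ligands and receptors of these pathways together with Notch targets and cofactors, 18 genes that were all tested. In control 9w against control 5w, 6 rose and 1 fell, the receptors Notch4 and Notch1 rising by 1.58 ± 0.31 and 1.41 ± 0.23 (edgeR, Benjamini-Hochberg adjusted p = 0.00206 and 0.000662), while Notch3 among the members had a value below 0. Without control 9w replicate 2, of these calls only those of Notch4 and Notch1 held. Both are made mainly by endothelium, whose markers were called higher too, and the part of that cell type was not tested. In HFpEF against control 5w the ligand Dll1 rose by 1.31 ± 0.20. With EMPA + PFD against untreated the ligands Jag1 and Pdgfb fell, at −1.24 ± 0.28 and −1.22 ± 0.29, the call of Pdgfb being lost with the term for Eif2s3y and both calls without untreated replicate 2 or 3 or EMPA + PFD replicate 2 or 3, at values up to −0.96 and −0.95. The ligand Pdgfb and its receptor Pdgfrb thus both had values below 0 there, of which the first alone was called. The list also had 3 called lower in EMPA + PFD against HFpEF, 3 lower against control 9w and 3 lower in the disease effect between weeks. Without EMPA + PFD replicate 2, all of these calls against HFpEF and control 9w were lost. In the disease effect only the call of Dll1 held in each fit that left out 1 library, and that of Notch4 was lost in 17 of 19.

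The actin genes are nearly identical in their coding sequence, so reads may have been assigned between them, and the annotation used for counting was not at hand. Cardiac Actc1 fell in HFpEF against control 5w, at −2.00 ± 0.55, and rose in EMPA + PFD against HFpEF, at 1.82 ± 0.54, where Acta2 fell. Both Actc1 calls were lost without HFpEF replicate 1 or 2, and the first also without control 5w replicate 1 or with the term for Eif2s3y, with an adjusted p of up to 0.0784 and 0.0585 by edgeR and Benjamini-Hochberg. Actc1 also fell without disease, in control 9w against control 5w, at −1.66 ± 0.54. That call was lost without control 5w replicate 1 or control 9w replicate 1 or 2. Skeletal Acta1 fell there too, at −2.79 ± 0.71, with Acta2 at 0.38 ± 0.51. Actc1 was called higher with EMPA + PFD against control 9w, at 1.49, and in the disease effect between weeks, at 2.65. These 2 calls were lost in 12 and 7 of the 19 fits that left out 1 library. Nonmuscle Actb and Actg1 were at −1.05 ± 0.18 and −0.85 ± 0.17 in EMPA + PFD against HFpEF, of which Actb was called, a call lost without HFpEF replicate 1 or EMPA + PFD replicate 2, at values up to −0.90.

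Levels of the contractile members other than Smtn varied together across libraries. Over 19 libraries, the 15 pairs of the 6 contractile members other than Smtn had Pearson r from 0.56 to 0.98 with a median of 0.83 on log2 CPM, and a median Spearman rho of 0.76. Smtn against these 6 had r from −0.47 to 0.015, with a median of −0.32. The 3 surface pairs had a median r of 0.62. The 18 pairs of a contractile with a surface member had a median r of 0.36, which turned to −0.15 when HFpEF replicate 1 and EMPA replicate 2, the libraries farthest out, were left out, while the contractile median was then 0.69 and the surface median 0.50. The median of Smtn turned as well without these libraries, to 0.050, with r from −0.35 to 0.51, so its negative sign rests on them. Libraries of a group share its treatment, so these values describe the series and are not a test.

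**Figure D3:**
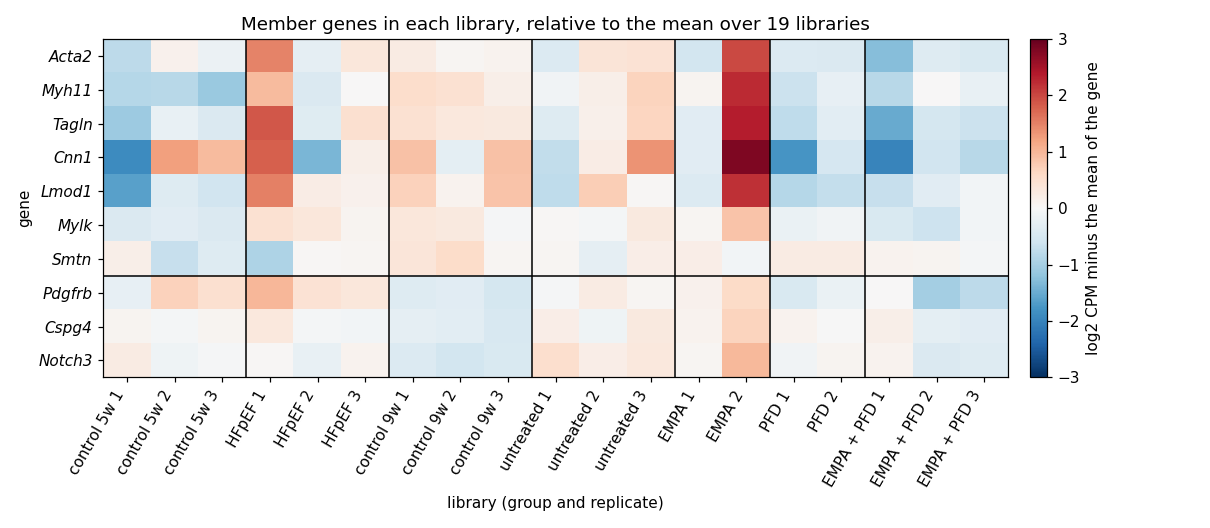
Log2 CPM of each member (vertical axis) in each library (horizontal axis) minus the mean of that gene over the 19 libraries, as a colour scale. The 6 contractile genes other than Smtn are jointly high in HFpEF replicate 1 and EMPA replicate 2 and low in control 5w replicate 1 and EMPA + PFD replicate 1.

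The 8 genes outside the members whose pattern was most like the mean of the 7 standardised contractile members included Fmod (r = 0.92 over 19 libraries), Npy1r (0.91), Mustn1 (0.90), Flna (0.89), Kcnma1 (0.89), Actg2 (0.89) and Csrp1 (0.87). Flna, Kcnma1, Actg2 and Csrp1 were on the smooth muscle list already. Kcnma1 had few counts, with a median of 0.73 CPM and 0 in control 5w replicate 1. With a prior count of 0.5 its r was 0.84 and it left the first 8. EMPA replicate 2 was the highest library for all of the 7 named genes except Csrp1, which was highest in HFpEF replicate 1. Without both libraries 2 of the first 8, Fmod and Csrp1, still ranked there, so the ranking rests on them. Across the same libraries, the contractile mean had an r of −0.49 with the log2 sum of the cardiomyocyte markers, 0.34 with the endothelial, −0.045 with the fibroblast, 0.30 with the myofibroblast, 0.26 with the atrial, −0.37 with the leukocyte and 0.36 with the mesothelium sum. Without both libraries these were −0.38, 0.77, −0.15, 0.041, 0.14, −0.55 and 0.65 in the same order.

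Smooth muscle genes are known for CArG boxes, the elements that serum response factor binds together with myocardin. Since the contractile members varied together, their promoters were searched for this element in RefSeq sequences of the GRCr8 assembly, 300 bases around each gene's start, on both strands, which is 1 search because the element reads alike on each. Of the 10 members 6 had a promoter in the table (Acta2, Cnn1, Smtn, Mylk, Cspg4 and Notch3), and Myh11, Tagln, Lmod1 and Pdgfrb had none. The exact element was found in 0 of these 6, and in 1.20% of the promoters of tested genes. With 1 C or G allowed among its 6 middle letters it was found in 1 of the 6, Acta2, and in 8.03% of the promoters of tested genes. The Acta2 promoter, at chr1:241172454-241172753 on the minus strand, is shown because it holds both such matches, CCCTATATGG and CCTTGTTTGG, which stand in capitals and begin at positions 117 and 167 counted from its 5′ end.
Acta2: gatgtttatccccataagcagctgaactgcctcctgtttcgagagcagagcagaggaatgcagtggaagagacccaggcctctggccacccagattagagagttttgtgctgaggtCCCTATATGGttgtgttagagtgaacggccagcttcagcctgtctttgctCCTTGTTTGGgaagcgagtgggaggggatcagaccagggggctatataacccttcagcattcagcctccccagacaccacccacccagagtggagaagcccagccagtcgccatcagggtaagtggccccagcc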

How the data were processed

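RNA of 19 left ventricles was sequenced. The authors deposited read counts per gene symbol, made with Trim Galore, FastQC, HISAT2 on rn6 and HTSeq; strand and overlap settings are not given. The 10 members and the gene lists were chosen with earlier results of these data known. Counts were tested in edgeR 4.0.16 under R 4.3.3 (TMM, filterByExpr, quasi-likelihood F test), with all 7 groups in a single design and no replicate block, and adjusted by Benjamini-Hochberg over the 12388 tested genes in each comparison. The biological coefficient of variation was 0.257. Calls needed an adjusted p under 0.05 and a 2 fold difference. CPM are TMM-scaled, and log2 CPM use a prior count of 2. The fit was tested on simulated data. Alternatives were other normalizations, filters, DESeq2 1.42.0, subsets of libraries, a replicate block, a term for Eif2s3y and leaving out libraries.

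Named are all members, the actin paralogs, from each other list at most 4 called genes per comparison by size of log2 fold change, and 7 of the 8 genes most correlated with the contractile mean. Myocd, Prkg1 and Ppp1r14a in EMPA + PFD against HFpEF go beyond these 4 and were named after their values were seen. The same holds for Abcc9 in that comparison, which was not called. Library totals of 7430539 to 13017754 limit what low counts can show. Gene length and GC content could not be examined, since no rn6 annotation was at hand.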

Additional observations from a re-analysis of the deposited data

Results flagged for a closer look

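The test of whether the effect of the disease differed between week 9 and week 5 passed on adjusted p alone for 2 of the 10 members, the same share as the 20% of all tested genes that passed. For Mylk the difference was −0.82 on the log2 scale (edgeR quasi-likelihood F test, Benjamini-Hochberg adjusted p = 0.0447): the log2 fold change against the control of the week was 0.71 at week 5 and −0.11 at week 9. For Notch3 the difference was 0.88 (adjusted p = 0.0463), from −0.061 at week 5 to 0.82 at week 9. Neither reached a 2 fold difference, and over the alternatives the adjusted p in edgeR and DESeq2 ran from 0.0199 to 0.0997 for Mylk and from 0.0147 to 0.114 for Notch3. The threshold was lost under 16 of 28 alternatives for Mylk and 18 of 28 for Notch3, while the direction was the same under each.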

How the results depend on the processing

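Of 108 fold changes followed through 3019 refits, 2636 kept their direction and side of the adjusted p threshold, 314 lost the threshold, 48 gained it and 21 reversed. Members called stayed at 0 under each alternative in untreated against control 9w, untreated against HFpEF, EMPA + PFD against untreated, EMPA against untreated, PFD against untreated and the interaction. DESeq2 called 3 members in HFpEF against control 5w, 2 in control 9w against control 5w and 1 for the disease effect between weeks. Fits of only the libraries compared called 2 in control 9w against control 5w, 2 in EMPA + PFD against control 9w and 2 in EMPA + PFD against HFpEF, where Acta2 was lost. Adjusted p alone gave 1 in HFpEF against control 5w, 3 in control 9w against control 5w, 1 in EMPA + PFD against control 9w and 2 for the disease effect. The term for Eif2s3y, which only the difference of HFpEF replicate 2 from replicates 1 and 3 identifies, left 0 in EMPA + PFD against HFpEF and reversed Tagln (0.66) and Cnn1 (1.08) against untreated and Cnn1 (0.38) against HFpEF. Leaving out HFpEF replicate 1, untreated replicate 2 and EMPA replicate 2 together, chosen after seeing the data, gave 2 in control 9w against control 5w, 0 in EMPA + PFD against HFpEF, 1 in EMPA + PFD against control 9w and 1 for the disease effect. It reversed EMPA against untreated for Acta2 (−0.62), Myh11 (−0.26), Tagln (−0.56), Cnn1 (−1.02) and Lmod1 (−0.090), and the interaction for Acta2 (0.39), Myh11 (0.38), Tagln (0.25) and Cnn1 (1.00). Leaving out 1 library gave 0 to 3 members in HFpEF against control 5w, 0 to 2 in control 9w against control 5w, 0 to 4 in EMPA + PFD against HFpEF and 0 to 2 for the disease effect. With 1 library left out, EMPA against untreated ran from −0.73 to 1.79 for Acta2, −0.21 to 1.96 for Myh11, −0.54 to 2.15 for Tagln, −0.88 to 2.31 for Cnn1 and −0.55 to 2.06 for Lmod1, and the interaction from −2.02 to 0.50 for Acta2, −1.84 to 0.33 for Myh11, −2.47 to 0.22 for Tagln and −2.33 to 0.87 for Cnn1, each reversed without EMPA replicate 2; the library left in EMPA is then assumed to vary like the other groups. The median r of contractile with surface members reversed to −0.15, and that of Smtn with the other contractile members to 0.050, without HFpEF replicate 1 and EMPA replicate 2, also chosen after seeing the data. The cause of these changes was not tested. The replicate block left the members called at 1 in control 9w against control 5w, 3 in EMPA + PFD against HFpEF and 0 in the other pairwise comparisons; replicate numbers did not pair libraries, since deviations from the group mean had a median r of −0.067 for the same number and 0.038 for other numbers. Over all alternatives the genes called ran from 2 to 443 in untreated against control 9w, where the main count was 113, from 1 to 933 in untreated against HFpEF, where it was 24, and from 5 to 1501 in EMPA + PFD against untreated, where it was 473. They ran from 0 to 51 in EMPA against untreated, 0 to 4 in PFD against untreated and 0 to 38 for the interaction, where the main counts were 5, 1 and 1.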
